A study of Homo sapiens with 6 samples.

Results

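Genes of the TCF/LEF, BCL11 and TOX families and SATB1, 9 transcriptional regulators of which several act in early T-cell development, were examined in the open chromatin of Jurkat, a human cell line from a T-cell leukaemia: TCF7, LEF1, TCF7L1, TCF7L2, BCL11A, BCL11B, TOX, TOX2 and SATB1. They are 9 of 20037 protein-coding genes in the RefSeq table used. They were chosen by name and not by a cut-off on a measured value, but with earlier results of these data known. For each gene, every peak that overlapped its RefSeq span extended by 50 kb on each side was taken, which gave 508 of 246341 peaks in the 6 libraries. The assay was ATAC-seq: a transposase cuts accessible DNA and leaves adapters for sequencing at the cuts. Each library took the nuclei of 50000 cells, exposed to the enzyme for 30 min at 37 °C, with 3 libraries at normal gravity (NG 1 to NG 3) and 3 under simulated microgravity (SMG 1 to SMG 3). All 6 libraries came from the same line in the same medium, with no other treatment or genotype named. Simulated microgravity means that the isolated nuclei, not intact cells, already in the transposase mix, were held for 30 min in a random positioning machine turning at 30 degrees per second; the protocol text is the same for both groups. A rotated nucleus is therefore a limited model of a T cell in microgravity. Nothing in the labels states that libraries within a group were separate cultures. The p-values below therefore measure only library-to-library spread, possibly technical.

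TCF7 (which encodes TCF-1) and LEF1 are transcription factors with a DNA-binding HMG box. They bind beta-catenin when Wnt signalling is active and TLE corepressors when it is not, and thymocytes need them to enter and pass through the T lineage. TCF7L1 and TCF7L2 are the other vertebrate members of that family and act mostly in other tissues. BCL11B is a zinc finger factor that fixes T-lineage commitment, and its paralogue BCL11A is best known from B cells and as a repressor of fetal globin. TOX, an HMG-box protein, is needed for CD4 T cells to develop and marks exhausted T cells, TOX2 is its paralogue, and SATB1 organises chromatin in thymocytes.

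The number of peaks in a library was 37782 to 43713, and the lists hold no read counts, so sequencing depth is not given directly. A genome-wide background pileup of 1.17 (NG 1), 1.77 (NG 2), 1.42 (NG 3), 1.59 (SMG 1), 1.73 (SMG 2) and 1.59 (SMG 3) was recovered from the deposited folds and p-values, so NG 1 had the lowest. A pileup is the number of extended reads or fragments over a base, and no source used here says which. What part of the background is sequencing depth was not tested. Peaks are described by a score percentile, the rank of a peak's q-value within its own library, where 100 is the strongest peak. A percentile of 1 library is not a measure of change against another. Markers of T cells were open: 6 of 7 (CD3D, CD3E, CD3G, CD247, CD7 and LCK) had a peak within 1 kb of a gene start in all 6 libraries, and CD2 in 3. None of 24 markers of B cells, myeloid cells, NK cells and erythroid cells had one in any library. Over all protein-coding genes, 47.0% had one in all 6 libraries and 40.0% had none in any. A start was annotated for 4 of the 7 T-cell markers. For markers without one, a peak within 1 kb of either end of the span was counted.

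The starts of the 9 genes came from a RefSeq promoter table (GRCh38.p14), which holds 19 starts of 8 of them. TOX has no entry there, so both ends of its span were used. A peak lay within 1 kb of 8 of the 19 starts in all 6 libraries and of 9 in none. A peak lay over the start base itself in all 6 libraries at 4 starts: that of BCL11B, the first of TCF7L2, and the first and the third of SATB1. The promoter sequences below run from 250 bases before to 50 bases after the start and are shown because they carry this contrast. The first 4 were open at the start base in every library. LEF1 was open there in 4 libraries. TCF7 (first start) and TOX2 (first start) had no peak over the sequence in any library, and are rich in CpG. Capitals mark matches to 6 short motifs, each searched on both strands. The TCF/LEF letters were CTTTGA and the letters searched for ETS factors were CCGGAA. For RUNX proteins the letters were TGTGGT, and for the GATA factors they were AGATAA. The AP-1 motif was searched as TGACTCA and the motif of Sp and KLF factors (Sp/KLF) as GGGCGG. No motif holds another. Where Sp/KLF matches overlap they print as 1 run.
BCL11B, chr14:99272148-99272447, minus strand: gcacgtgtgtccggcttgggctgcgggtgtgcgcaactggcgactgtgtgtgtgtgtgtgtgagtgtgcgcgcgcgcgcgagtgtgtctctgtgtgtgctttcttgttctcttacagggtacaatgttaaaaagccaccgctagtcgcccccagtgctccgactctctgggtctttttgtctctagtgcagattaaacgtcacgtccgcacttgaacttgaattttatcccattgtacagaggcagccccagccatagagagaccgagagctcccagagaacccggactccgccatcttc
SATB1 start 1, chr3:18445543-18445842, minus strand: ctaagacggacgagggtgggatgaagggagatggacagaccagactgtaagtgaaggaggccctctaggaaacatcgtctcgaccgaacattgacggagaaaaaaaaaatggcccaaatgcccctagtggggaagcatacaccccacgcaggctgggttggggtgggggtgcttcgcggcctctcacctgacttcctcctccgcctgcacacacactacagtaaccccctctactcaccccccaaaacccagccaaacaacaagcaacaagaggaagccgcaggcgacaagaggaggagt
SATB1 start 3, chr3:18438687-18438986, minus strand: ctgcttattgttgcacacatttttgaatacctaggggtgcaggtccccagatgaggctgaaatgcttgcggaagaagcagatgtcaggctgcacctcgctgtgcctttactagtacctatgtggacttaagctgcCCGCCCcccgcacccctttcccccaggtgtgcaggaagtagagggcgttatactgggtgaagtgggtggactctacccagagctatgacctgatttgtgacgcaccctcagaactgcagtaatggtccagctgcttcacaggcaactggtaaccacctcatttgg
TCF7L2 first start, chr10:112949997-112950296, plus strand: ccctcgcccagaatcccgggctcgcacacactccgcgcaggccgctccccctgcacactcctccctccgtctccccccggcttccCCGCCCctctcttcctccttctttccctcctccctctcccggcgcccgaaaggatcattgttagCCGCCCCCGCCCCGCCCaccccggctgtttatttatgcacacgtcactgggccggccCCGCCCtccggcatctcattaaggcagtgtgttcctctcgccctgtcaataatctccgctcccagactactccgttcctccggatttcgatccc
LEF1, chr4:108166252-108166551, minus strand: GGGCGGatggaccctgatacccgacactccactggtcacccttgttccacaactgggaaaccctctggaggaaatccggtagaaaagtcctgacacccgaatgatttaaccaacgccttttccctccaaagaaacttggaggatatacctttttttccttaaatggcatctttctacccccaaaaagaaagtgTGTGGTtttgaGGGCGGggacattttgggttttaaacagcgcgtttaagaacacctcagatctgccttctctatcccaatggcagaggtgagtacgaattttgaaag
TCF7 first start, chr5:134115363-134115662, plus strand: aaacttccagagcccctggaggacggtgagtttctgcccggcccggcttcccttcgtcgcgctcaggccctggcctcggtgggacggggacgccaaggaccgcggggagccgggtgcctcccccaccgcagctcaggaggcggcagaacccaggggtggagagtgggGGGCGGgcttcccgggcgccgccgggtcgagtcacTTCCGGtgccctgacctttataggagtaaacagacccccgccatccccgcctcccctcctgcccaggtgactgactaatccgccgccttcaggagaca
TOX2 first start, chr20:43915880-43916179, plus strand: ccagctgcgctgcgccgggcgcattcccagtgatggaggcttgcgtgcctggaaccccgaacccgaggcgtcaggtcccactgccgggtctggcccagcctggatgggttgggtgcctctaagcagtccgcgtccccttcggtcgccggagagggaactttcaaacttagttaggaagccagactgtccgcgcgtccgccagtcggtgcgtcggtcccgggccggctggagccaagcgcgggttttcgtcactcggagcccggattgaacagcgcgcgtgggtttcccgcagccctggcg

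These sequences differ in base composition. The BCL11B promoter has 55.7% G and C and 20 CpG, the first of TCF7L2 65.7% and 25, and the LEF1 promoter 47% and 9. The first start of TCF7 has 69.7% and 25 CpG, and the first start of TOX2 68% and 33 CpG. The median over all 35116 promoters of the table was 58.7% and 14 CpG. Both were chosen for printing as CpG-rich promoters without a peak. Of the 11 promoters of these genes that no peak overlapped in any library, 5 had more G and C than that median and 6 had less, from 42.7% at the second start of TCF7L2 to 69.7% at the first start of TCF7. The Sp/KLF motif was found in 11 of the 19 promoters, and in 45.0% of all promoters in the table. RUNX letters were found in 3 (13.1% of all), ETS letters in 2 (17.2%), GATA letters in 2 (10.3%), and TCF/LEF and AP-1 letters in 0 (12.9% and 4.95%). The first TCF7L2 promoter held 5 Sp/KLF matches and the LEF1 promoter a RUNX match 57 bases before the start. A match describes letters and is not evidence of a bound factor.

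The windows of TCF7 and LEF1, each the gene span and 50 kb on each side, had the most open chromatin per kb of the 9. These windows also hold other protein-coding genes, 4 at TCF7 and 2 at LEF1, and the share within the gene spans alone is not given here. Of the merged peak regions found in all 6 libraries, 3 of 7 at TCF7 and 7 of 15 at LEF1 overlapped the gene itself. On average over the 6 libraries peaks covered 5.46% of the LEF1 window and 4.54% of the TCF7 window, against 1.13% to 1.74% of the other 7 windows and a median of 1.33% over all protein-coding genes. In order of this share, LEF1 stood above 98.7% of protein-coding genes and TCF7 at 97.0%. The other 7 genes stood between 43.6% and 61.9%, in the order TOX, BCL11B, SATB1, TOX2, BCL11A, TCF7L1 and TCF7L2. Over the 6 libraries LEF1 ran from 4.17% to 6.35% and TCF7 from 3.57% to 5.20%, so these ranges overlap. The lowest TCF7 value lay above the highest of any of the other 7 genes, 2.06% at BCL11B in SMG 1. Each neighbour in the order of those 7 had a range that overlapped the next.

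At LEF1 (chromosome 4, 108047548 to 108168932, hg38), 15 of 29 regions were held by all 6 libraries, where a region is the union of peaks that overlap between libraries. Most lay far from the start, with a median distance of 93.2 kb, and ran through the gene body into the flank beyond its far end. The strongest in the gene (108071974 to 108073087), 93.8 kb along it, stood at percentiles of 87.6, 90.7 and 90.2 in NG 1 to NG 3 and 92.8, 94.5 and 90.3 in SMG 1 to SMG 3. It was strong in every library, with a summit pileup from 43 in NG 1 to 83 in SMG 2. Beyond the far end of LEF1 a region at 108029887 to 108030698 reached a mean percentile of 87.9, inside the span of HADH, an enzyme of fatty acid oxidation. A region at 108171312 to 108172197, at the start of the antisense transcript LEF1-AS1, stood at 75.5 to 87.0 in all 6 libraries. Reads carry no strand in ATAC-seq, so openness there cannot be assigned to LEF1 or its antisense partner.

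The region over the start of LEF1 (108166153 to 108167007) had a mean percentile of 48.8 over the 5 libraries that held it. The 7 regions inside the gene that all 6 libraries held had means of 49.6 to 91.0. The lowest of them ran from 29.4 to 69.4 over the libraries, so the start is not separated from it. Regions inside the gene held by fewer libraries lay lower, at 3.78 to 46.4. The start stood at 53.6 in NG 2, 24.9 in NG 3, 42.1 in SMG 1, 49.0 in SMG 2 and 74.4 in SMG 3, and no peak in NG 1. It was missing only from the library with the lowest background. Within the promoter sequence printed above, peaks covered all 300 bases in NG 2, SMG 1, SMG 2 and SMG 3 but 5 bases in NG 3. The LEF1 span reaches beyond the start used here, to 108168932. A region over that end (108168629 to 108169102) was held only by NG 2, NG 3 and SMG 2, at a mean of 32.2.

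At TCF7 (chromosome 5, 134108218 to 134148210), 7 of 17 regions were held by all 6 libraries. The strongest (134086759 to 134087599) lay 28.4 kb before the first start, inside the span of VDAC1, a channel of the outer mitochondrial membrane. Its percentiles were 96.9, 97.3 and 97.8 at normal gravity and 97.2, 97.9 and 96.7 under simulated microgravity, and its summits in the 6 libraries fell within 18 bp of each other. A region 37.2 kb before the start (134078024 to 134078798) was also strong, at a mean of 90.0. Neither start base of TCF7 was under a peak. The nearest constant region ended 903 bp before the first start (134114036 to 134114710) and 461 bp before the second (134122361 to 134123157). The region before the second start stood at 63.3, 76.5 and 79.1 in NG 1 to NG 3 and at 89.7, 80.5 and 69.1 in SMG 1 to SMG 3, with the groups overlapping. The promoter of the second start holds 3 CpG. Inside the gene a region 16.9 kb from the first start (134132175 to 134132780) was held by all 6 libraries at a mean of 68.3, and the region at the start of SKP1, a ubiquitin ligase subunit, at 52.4.

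**Figure D1:**
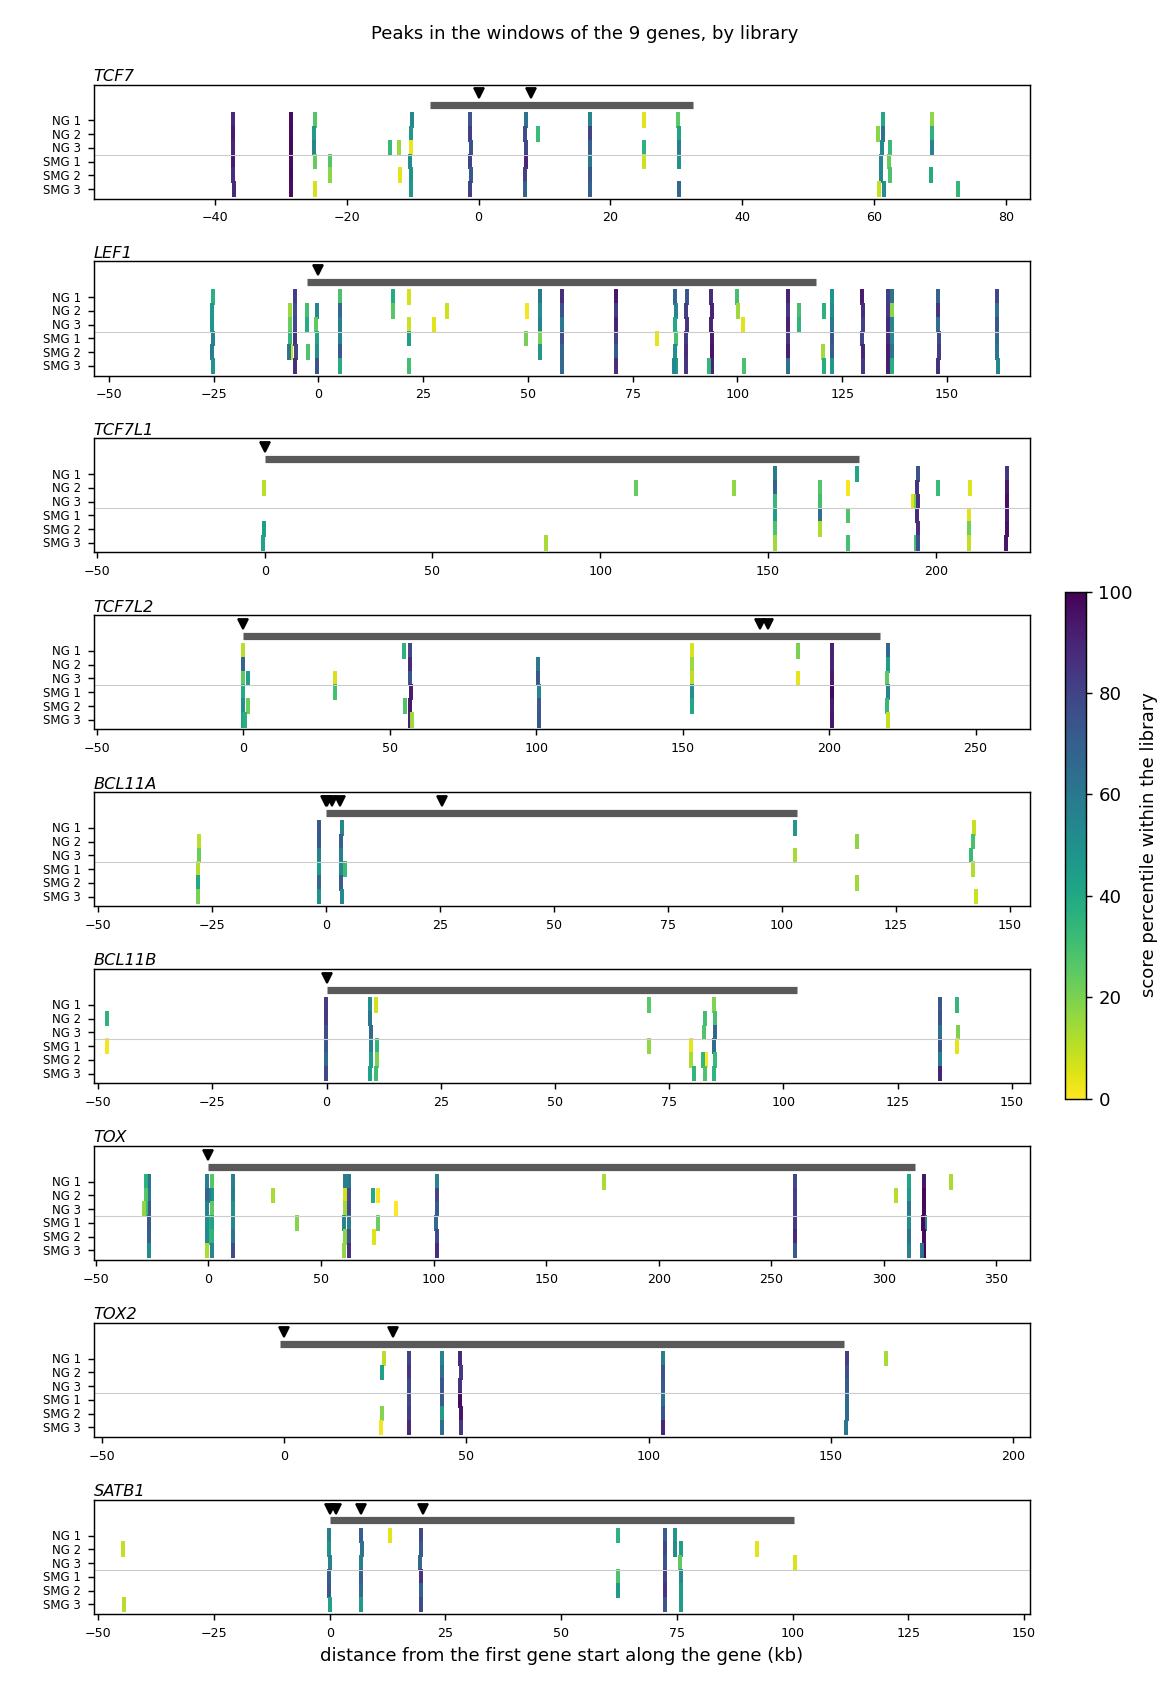
Peaks of the 9 windows in each of the 6 libraries; the x axis is the distance in kb from the first gene start along the gene, the grey bar is the gene span, triangles are annotated starts (for TOX, the end next to TOX-DT), and colour is the score percentile within the library. Peaks line up as columns across all 6 libraries in the LEF1 and TCF7 windows, and the first 83.7 kb after the TCF7L1 start and 98.3 kb of the BCL11A span hold none.

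TCF7L2 and TCF7L1 had 11 and 13 regions, fewer than the 17 of TCF7 and the 29 of LEF1. BCL11B and SATB1, with 11 each, did not have more. TCF7L2 (chromosome 10, 112950247 to 113167678) had 4 of 11 regions in all 6 libraries. Its first start was open in each, at percentiles of 10.5, 66.8 and 25.0 in NG 1 to NG 3 and 39.1, 50.2 and 42.1 in SMG 1 to SMG 3, so the spread within NG spanned the SMG values. No library had a peak within 1 kb of the second or the third start. The strongest region (113150834 to 113151818) lay 201.1 kb along the gene, at 90.8, 90.6 and 93.1 in NG 1 to NG 3 and 98.3, 92.8 and 93.9 in SMG 1 to SMG 3. Another, 57.2 kb along it (113006831 to 113008058), stood at a mean of 86.2 with summits within 17 bp. TCF7L1 (chromosome 2, 85133392 to 85310387) had 3 of 13, of which 2 lay at the starts of its neighbours TGOLN2, a trans-Golgi protein, and of RETSAT and ELMOD3. The RETSAT and ELMOD3 region (85353853 to 85355279) was the strongest of the window, at a mean of 92.7. The only constant region within TCF7L1 (85285278 to 85285793) had a mean of 41.5. The TCF7L1 start had a peak within 1 kb in NG 2 (10.5), SMG 2 (44.7) and SMG 3 (42.0), and a stretch of 83.7 kb after it was free of peaks in every library.

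BCL11B (chromosome 14, 99169287 to 99272197) was open at its start in all 6 libraries (99272023 to 99272688). That region stood at 83.4, 83.2 and 76.1 in NG 1 to NG 3 and at 73.3, 66.2 and 79.1 in SMG 1 to SMG 3, and peaks covered all 300 bases of the promoter printed above in each. The summit pileup was 33, 50 and 35 in NG 1 to NG 3 and 33, 34 and 40 in SMG 1 to SMG 3. The 6 summits fell within 38 bp. It was the strongest region within the BCL11B span. In the whole window 4 of 11 regions were held by all 6 libraries. A second (99262115 to 99263263) lay 9.51 kb along the gene at a mean of 53.8 and another (99186986 to 99187564) 84.9 kb along it at 41.4. The remaining one (99137405 to 99138462), at an end of the noncoding LOC105370659 and 134.3 kb from the start, stood at 72.3. Between the regions 9.51 and 84.9 kb along the gene a stretch of 59.1 kb held no peak.

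BCL11A (chromosome 2, 60450520 to 60553924) has 5 annotated starts, and a peak lay within 1 kb of 1 of them. That region (60550068 to 60551072), at the fourth start, was held by all 6 libraries at 53.9, 69.9 and 57.8 in NG 1 to NG 3 and 52.5, 70.3 and 53.2 in SMG 1 to SMG 3. The other constant region (60555056 to 60555906) lay 1.13 kb before the first start, at a mean of 60.6. The first 3 starts, which lie between these regions and whose promoters hold 27, 25 and 13 CpG, had no peak within 1 kb. From 60451215 to 60549501, a stretch of 98.3 kb that is most of the gene body, there was no peak in any library. Absence of a call shows only that the signal did not pass the peak threshold.

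TOX (chromosome 8, 58805412 to 59119147) had 10 constant regions among 22. A region held by all 6 libraries (59119410 to 59119863) lay 263 bp outside the TOX span. The end there adjoins TOX-DT, a transcript named as divergent to TOX. The region stood at 57.1, 68.1 and 56.5 in NG 1 to NG 3 and 50.7, 52.9 and 12.5 in SMG 1 to SMG 3. The percentiles of NG and SMG did not overlap there, nor at some other constant regions. SMG was higher in the windows of TCF7L2 (113006831 to 113008058) and LEF1 (108191219 to 108191996), and NG in that of TOX2 (44069795 to 44070875). The share of all constant regions that did so is not given here. Percentiles are ranks in lists of different length and do not measure a change. The region over the span end itself (59118708 to 59119241) was held only by NG 2, SMG 1 and SMG 2, at a mean of 43.1. The strongest region of the window (58800768 to 58801955) had a mean percentile of 97.4, next to the 97.3 of the TCF7 region inside VDAC1, from which its spread does not separate it. It lay 3.46 kb beyond the other end of TOX, at 94.2, 98.3 and 97.9 in NG 1 to NG 3 and 97.8, 97.2 and 99.2 in SMG 1 to SMG 3. Within the gene the strongest (58858236 to 58858870) stood at a mean of 80.9.

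TOX2 (chromosome 20, 43914852 to 44069616) was the only gene of the 9 with no peak within 1 kb of any start. Even so, 5 of its 8 regions were held by all 6 libraries, all inside or beyond the gene. The strongest (43964132 to 43964935) lay 18.2 kb after the second start, with percentiles of 88.5, 83.4 and 86.0 in NG 1 to NG 3 and 97.6, 94.5 and 84.1 in SMG 1 to SMG 3. SMG 3 fell within the range of the NG libraries. The region nearest to a start (43949960 to 43950776), 4.06 kb after the second, had a mean of 82.2.

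SATB1 (chromosome 3, 18345377 to 18445592) was the gene with the most open starts. Of its 4 starts, 3 had a peak within 1 kb in all 6 libraries. The region over the first (18445363 to 18446188) stood at 57.4, 49.6 and 57.0 in NG 1 to NG 3 and at 71.3, 73.4 and 42.4 in SMG 1 to SMG 3, and that over the third (18438487 to 18439040) at a mean of 61.9. A region 24 bp from the fourth start (18425363 to 18426349) was stronger, at 79.0, 72.6 and 66.7 in NG 1 to NG 3 and 85.4, 69.6 and 77.5 in SMG 1 to SMG 3. In each case the groups overlapped. The region over the first start also lies within 1 kb of a start or end of SATB1-AS1, an antisense transcript. The strongest region (18372848 to 18373655), at a mean of 77.1, lay 72.3 kb along the gene.

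**Figure D2:**
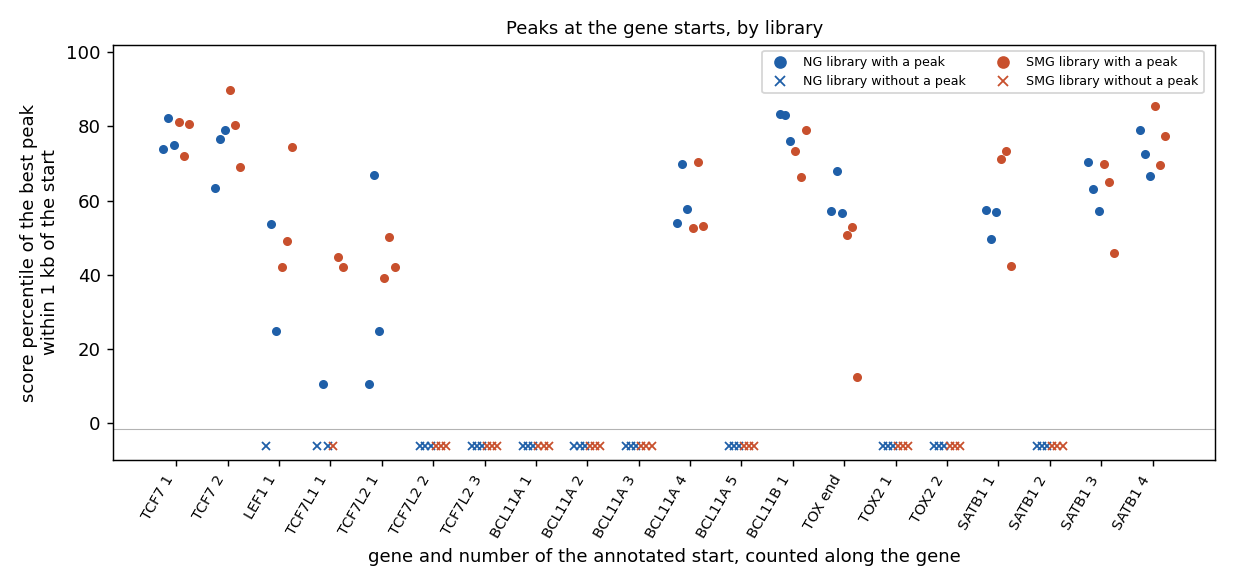
Score percentile of the best peak within 1 kb of each annotated start (y axis) by library, with crosses for libraries without a peak; starts are numbered along each gene on the x axis, and TOX is shown at the end next to TOX-DT. BCL11B, both TCF7 starts and the fourth SATB1 start lie between 63.3 and 89.7 in all 6 libraries, and TOX2 has crosses only.

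By the count of genes, 6 of the 9 (TCF7, TCF7L2, BCL11A, BCL11B, TOX and SATB1) had a peak within 1 kb of a start in all 6 libraries, where 47.0% of protein-coding genes did and 40.0% had none in any library. LEF1 had one in 5, TCF7L1 in 3 and TOX2 in 0. For TCF7 the window reached peaks that did not cover a start base. The fourth start of BCL11A was itself under a peak in 4 libraries, and the TOX span end next to TOX-DT in 3. Both ends of the span stood in for the start of TOX and of other genes without an annotated start.

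Regions seen in every library ranked higher on the median than regions seen in 1, as they did over the genome. Peak calls and percentiles both rest on the q-value, so this order is in part fixed by the method. Of 130 regions in the 9 windows, 54 (41.5%) were held by all 6 libraries and 29 (22.3%) by 1, against 34.6% and 34.9% of all 69562 union regions. The median percentile was 72.2 for regions in 6 libraries and 13.1 for regions in 1, near the 68.4 and 12.9 of all union regions. Of the 54, 9 lay at a start of the gene, 6 at a start or end of another gene, 25 elsewhere inside the gene and 14 in its flanks. Of these 54, 35 were over 10 kb from any start of the gene. The windows were 140 to 414 kb wide, and no genome-wide share is given here. The summits of the 54 agreed between libraries with a median range of 140 bp, against 179 bp for all regions held by 6 libraries. Of the 8 regions held by 5 libraries, NG 1 lacked 4, SMG 2 lacked 2 and SMG 3 lacked 2. Over the genome NG 1 lacked 42.6% of such regions, SMG 2 6.68% and SMG 3 22.2%.

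**Figure D3:**
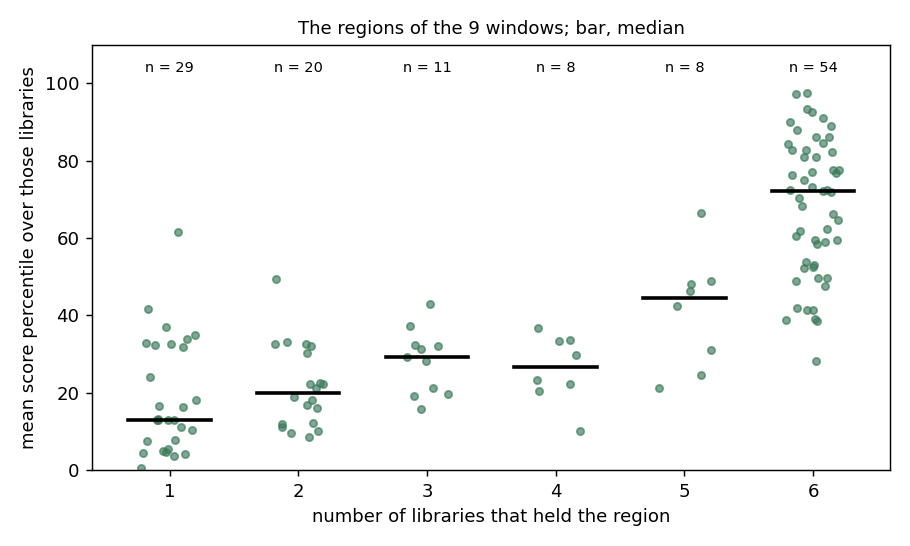
Each point is 1 of the 130 regions of the 9 windows, placed by the number of libraries that held it (x axis) and its mean score percentile over those libraries (y axis); bars are medians and the sideways scatter within a column carries no value. The medians are 13.1 for 1 library and 72.2 for 6.

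Simulated microgravity was then compared with normal gravity. Presence in the 3 libraries of 1 group with no peak in the opposite group was found for 1 region: a region 27.7 kb outside the TOX span on the TOX-DT side (59146645 to 59147006), with percentiles of 36.7, 27.1 and 30.5 in NG 1 to NG 3 and no peak in SMG. The reverse was found 0 times. Over all union regions the NG-only share was 0.260% and the SMG-only share 0.411%, and 1 and 0 of 130 are near these. No single region can pass a test of 3 against 3 libraries, whose smallest two-sided p is 0.1. The next region towards the gene (59145333 to 59146108) was held by all 6 libraries.

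The open chromatin covered in each window did not separate the groups for any of the 9 genes. LEF1 was covered over 9.22, 14.1 and 12.7 kb in NG 1 to NG 3 and over 11.7, 13.2 and 11.6 kb in SMG 1 to SMG 3, so the SMG values lay inside the NG range. The means were 12.0 ± 2.50 kb and 12.2 ± 0.878 kb (SD, n = 3 each), a difference of 0.178 kb (exact permutation p = 0.9, two-sided). TCF7 was covered over 4.99, 6.59 and 7.28 kb in NG and 6.56, 6.46 and 6.30 kb in SMG, also inside the NG range (difference 0.153 kb, exact permutation p = 1).

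The BCL11 genes had the largest differences in either direction. BCL11B was covered over 2.88, 3.50 and 3.26 kb in NG and 4.18, 3.67 and 3.02 kb in SMG, with means of 3.21 ± 0.308 kb and 3.62 ± 0.581 kb (SD, n = 3 each). The difference of 0.412 kb was smaller than the SD of SMG (exact permutation p = 0.4). BCL11A was covered over 1.84, 3.20 and 3.03 kb in NG and 2.52, 2.31 and 2.14 kb in SMG. Its difference was −0.367 kb (exact permutation p = 0.4), and the low value was that of NG 1. TOX stood at 7.21 ± 0.990 kb and 7.16 ± 0.137 kb (SD, n = 3 each, exact permutation p = 0.9), and SATB1 at 3.33 ± 0.426 kb and 3.16 ± 0.184 kb (SD, n = 3 each, exact permutation p = 0.6). For TCF7L1, TCF7L2 and TOX2 the differences were 0.298, −0.0977 and 0.186 kb (exact permutation p = 0.8, 0.8 and 0.6).

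**Figure D4:**
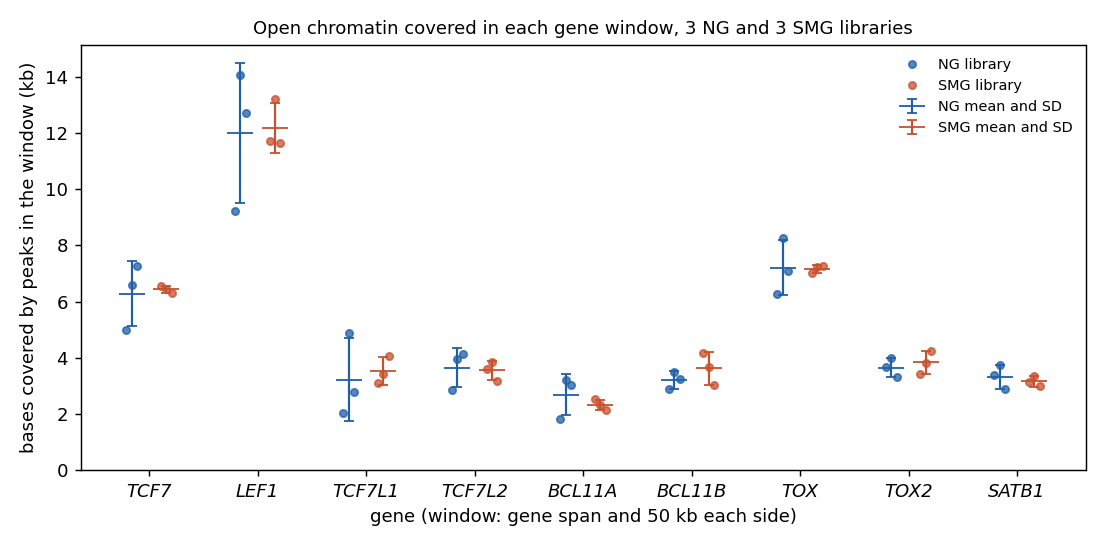
Bases covered by peaks in the window of each gene (y axis, kb) in the 3 NG and the 3 SMG libraries; points are libraries, horizontal marks are means and bars are SD (n = 3). The NG and SMG points overlap at all 9 genes, and LEF1 is highest at 9.22 to 14.1 kb.

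Of the 9 genes, 5 had a higher mean in SMG and 4 in NG, and in 0 of them were the groups without overlap. Over all windows SMG had the higher mean in 68.3%. Scaled to all bases covered in the library, 2 of the 9 genes (TCF7L1 and BCL11B) had a higher mean in SMG and 7 in NG, against 51.6% and 48.4% of windows. By number of peaks 1 (BCL11B) was higher in SMG, 6 were higher in NG and 2 were equal, against 46.1% and 31.1% of windows higher in SMG and in NG. The same test over all 18911 windows with a peak found SMG wholly above NG in 6.66% and NG wholly above SMG in 1.49%. With that scaling the count without overlap was again 0 of 9, against 4.60% and 4.09% of windows. By number of peaks it was 0 of 9, against 1.96% and 0.894%. The median difference was 0.153 kb over the 9 genes and 0.118 kb over all windows. Every adjusted p over all windows (Benjamini-Hochberg, exact permutation test) was 1, and 0 windows had an unadjusted p under 0.05, which this design cannot give. Leaving out 1 library gave separated groups at up to 3 of the 9 genes. Without NG 1, the library with the lowest background, NG was wholly above SMG at TCF7, TCF7L2 and BCL11A, as it was in 10.1% of all windows, and SMG above NG at 0 of 9 (7.79%). Without NG 2, SMG was above NG at TCF7L1 (22.5%) and NG above SMG at 0 of 9 (2.30%). Without NG 3, NG was above SMG at SATB1 (3.24%) and SMG above NG at 0 of 9 (12.0%). Without SMG 3, SMG was above NG at BCL11B (12.7%) and NG above SMG at 0 of 9 (3.07%). Neither direction gave a gene without SMG 1 (14.7% with SMG above and 2.91% with NG above) or without SMG 2 (10.9% and 4.33%).

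Partners, pathway members and paralogues of the 9 genes were taken as 6 lists, in which 56 of 86 genes had a peak within 1 kb of a start in all 6 libraries, where 47.0% of protein-coding genes did. For genes without an annotated start, a peak within 1 kb of either end of the span was counted. Starts were annotated for 16 of 20 genes of the first list below, 12 of 19 of the second and 13 of 16 of the third. Of 20 genes of the beta-catenin machinery and TCF/LEF partners, 14 had a peak within 1 kb of a start in all 6 libraries. The strongest were GSK3B, a kinase that marks beta-catenin for degradation (mean percentile 99.7), TLE4, a corepressor (99.7), and APC, a scaffold of the destruction complex (96.0). AXIN2, a scaffold induced by Wnt signalling, TLE2, a corepressor, and PYGO1, a coactivator, had none in any library. Of 19 Wnt receptors and transducers 10 had one in all 6, led by the receptors FZD1 (96.0), LRP6 (81.4) and FZD6 (67.5), and FZD10, DVL1 and WLS had none. Of 16 other thymocyte factors 7 had one in all 6, led by GFI1, a zinc finger repressor (86.2), TCF3, an E protein (82.9), and CBFB, the partner of RUNX proteins (80.5), and IKZF3, ETS1 and ZBTB7B had none.

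BCL11A and BCL11B are subunits of BAF, a chromatin remodelling complex, and also bind NuRD, a deacetylase complex. Of 15 BAF genes, 11 of them with an annotated start, 13 had a peak at a start or span end in all 6 libraries. The strongest were ACTL6A (99.2), SMARCA2 (97.4) and SMARCD2 (87.7). Of 13 NuRD genes, all with an annotated start, 10 had one, led by GATAD2A (98.8), HDAC2 (93.1) and GATAD2B (93.0). TOX4, a paralogue of TOX, had one in all 6 libraries (96.7). TOX3, another, had no peak anywhere in its window in any library. Across these 6 lists, 10 of 85 windows had SMG wholly above NG in covered bases, and 1 had NG above SMG, where 6.66% and 1.49% of all windows did. Scaled to all bases covered in the library, the counts were 8 and 1, against 4.60% and 4.09% of all windows. Among the 10 without scaling was RUNX1, a Runt-domain factor of thymocytes. It was covered over 8.84, 13.3 and 11.0 kb in NG and 13.4, 14.8 and 14.2 kb in SMG. The 1 with NG above SMG without scaling was FZD10, covered over 0.478, 0.742 and 0.688 kb in NG, with no peak in its window in SMG. Each such difference had the smallest p possible (exact permutation p = 0.1, adjusted p = 1 over all windows) and did not pass the test. RUNX1 and FZD10 are named here after their values were seen.

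The protein-coding genes whose windows were most like that of LEF1 in the share covered in the 6 libraries were SPNS1, a lysosomal lipid transporter (mean share 5.42%), NTN5 (5.55%) and TMEM95 (5.47%), at Euclidean distances of 0.603, 0.603 and 0.741 percentage points over 6 libraries.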

How the data were processed

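The authors deposited 1 peak list per library, without header, in the narrowPeak layout of MACS2. The tools named, per the submitters' processing notes, include BWA, Bowtie and MACS2, with hg38 as build. No source used here gives their versions, their settings, the treatment of duplicates or a correction for the transposase offset. The deposited score equals 10 times the −log10 q-value of the peak. The deposited fold enrichment is a linear ratio of summit to local background. The caller's −log10 p and −log10 q-values were taken as deposited. Each library had its own peak calling, judging by the peak names. Peak names of SMG 3 alone carry the word "normalized", which no label explains.

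Score percentiles rank −log10 q-values within a library. Peaks overlapping by at least 1 bp were merged into union regions. Summit pileups and backgrounds were solved from fold and p-value with the MACS2 formulas, within 0.001 of the deposited −log10 p-value for 99.9% or more of peaks in each library (99.947 to 99.961%). Gene spans and promoters came from RefSeq (GRCh38.p14). Genes without an annotated start (all but 15843 of 20037) used both ends, TOX among them. Exact permutation tests used the 10 splits of 6 libraries (scipy 1.17.1, Python 3.11.15) and were tested on simulated data. Nothing in the labels says that same-numbered libraries share a culture or a day, so no block was used in the main test. The genes and lists were chosen with earlier results of these data known. Named were the 9 genes, their start regions, the strongest region in gene and window, group-only regions, and per list the 3 strongest genes and those without a peak. TRAC and TRBC1 have no protein-coding entry in the table and were not analysed here. Alternatives were flank, score, overlap, scaling and leaving out libraries.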

Additional observations from a re-analysis of the deposited data

How the results depend on the processing

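No difference in covered bases passed a threshold under any setting tried, and the exact test of 3 against 3 allows no p below 0.1. The 54 regions held by all 6 libraries were 41 with a 10 kb flank, 33 within the gene spans, 27 at the stricter score of at least 90, 36 when peaks had to cover at least 50% of the region, and 54 to 58 when 1 library was left out. The 1 NG-only region became 0 with a 10 kb flank, no flank or the stricter score and 2 with that overlap, and 1 to 4 with 1 library left out. The 0 SMG-only regions became 1 with that overlap and 0 to 2 with 1 library left out. Leaving out a library asks for 1 peak fewer in its own group, or 1 absence fewer for a region of the opposite group. Genes without overlap between groups were 0 to 3 of 9 with 1 library left out. Genes with a start peak in all 6 libraries were 6, with 3 at the stricter score, 5 within 500 bp, and 6 to 7 with 1 library left out. The stricter score is a fixed cut-off, while the median score of a library ran from 65 in NG 1 to 90 in SMG 2. It therefore keeps a smaller share of the peaks of NG 1 than of SMG 2.

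The SMG minus NG difference in covered bases changed sign for TOX with a 10 kb flank (0.188 kb). Within the gene spans it did so for TCF7 (−0.295), LEF1 (−0.118), TCF7L2 (0.246), TOX (0.227) and SATB1 (0.0633). At the stricter score it did so for BCL11B (−0.330), TOX (1.15) and SATB1 (0.304). As a share of all bases covered in the library it did so for TCF7 (−9.17 bases per Mb covered), LEF1 (−20.3) and TOX2 (−3.02), and by number of peaks for TCF7 (−1), LEF1 (−1.33) and TOX2 (−0.333). With 1 library left out it ran from −0.494 to 0.649 kb for TCF7, −1.21 to 1.21 for LEF1, −0.302 to 1.12 for TCF7L1, −0.490 to 0.141 for TCF7L2, −0.511 to 0.475 for TOX, −0.0200 to 0.388 for TOX2, −0.399 to 0.0250 for SATB1, −0.792 to −0.112 for BCL11A and 0.135 to 0.714 for BCL11B. The cause of each change was not tested. With the replicate block the differences were the same by construction (0.412 kb at BCL11B, exact sign-flip p = 0.75), 0 genes had all 3 pairs in 1 direction, and the smallest p this design allows is 0.25. Deviations of same-numbered libraries correlated at 0.0447, 0.0620 and −0.00714 over windows. Those of NG and SMG libraries with different numbers correlated at −0.0720 to 0.0229. Values this low cannot decide whether the numbers mark pairs.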
